A study of Mus musculus with 8 samples.

Results

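The genes described here are 10 regulators of cell identity, 5 that act in epithelial cells (Grhl2, Ovol1, Elf3, Esrp1 and Esrp2) and 5 that act in mesenchymal cells (Zeb1, Zeb2, Snai1, Snai2 and Twist1). They were chosen by gene symbol out of 19938 genes measured, with earlier results of these data known, and each was read by 1 probe set. The cells were mouse pre-iPSCs, cells on the way to an induced pluripotent state that have not completed it, labelled MaF pre-iPSC9P2. They came from 1 clone, were plated on feeder cells, and stayed in mouse embryonic stem cell medium throughout. In the vitamin C group, 50 µg/ml vitamin C (ascorbate) was present from day 2 onwards, and the untreated group had the same medium without it. Cells were lysed on days 3, 4, 5 and 6 after removal of the feeder cells, with 1 Affymetrix array per treatment and day, so that each treatment had 4 arrays and each treatment on a given day had 1. The labels name neither the sex of the cells nor the transgenes they may carry, and they do not state whether each day was a culture of its own. The p-values therefore reflect the spread among the 8 arrays, which may be partly technical.

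Epithelial cells adhere through E-cadherin and seal their contacts with tight junctions, whereas mesenchymal cells lose these contacts and make vimentin and matrix proteins. ZEB and Snail proteins are zinc finger repressors that bind E-box motifs in epithelial promoters such as that of Cdh1, which encodes E-cadherin. GRHL2 and OVOL proteins act in the opposite direction, partly by repressing Zeb1, and the ESRP proteins direct the splicing of epithelial transcript isoforms. The change from mesenchymal to epithelial identity is a known early step when fibroblasts are reprogrammed.

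E-box motifs of the kind that ZEB and Snail proteins bind can be located in promoter sequences. Below are promoter windows of RefSeq (GRCm38.p6, 250 bases before to 50 bases after the annotated start, on the strand of the gene) for the members that hold the ZEB and Snail E-box, Elf3 and Snai1, and for 2 tight junction and sorting genes described further below, Cldn4 and Ap1m2. Capitals mark the E-box, CACCTG or its other strand CAGGTG. These windows were picked after the expression values were known, and a match is not evidence of binding.
Elf3, chr1:135258423-135258722 (-): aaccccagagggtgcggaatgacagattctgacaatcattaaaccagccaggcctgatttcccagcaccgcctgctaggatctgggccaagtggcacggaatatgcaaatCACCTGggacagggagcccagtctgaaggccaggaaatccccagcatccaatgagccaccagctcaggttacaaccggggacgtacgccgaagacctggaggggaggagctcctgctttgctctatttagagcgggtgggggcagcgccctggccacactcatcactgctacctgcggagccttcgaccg
Snai1, chr2:167537945-167538244 (+): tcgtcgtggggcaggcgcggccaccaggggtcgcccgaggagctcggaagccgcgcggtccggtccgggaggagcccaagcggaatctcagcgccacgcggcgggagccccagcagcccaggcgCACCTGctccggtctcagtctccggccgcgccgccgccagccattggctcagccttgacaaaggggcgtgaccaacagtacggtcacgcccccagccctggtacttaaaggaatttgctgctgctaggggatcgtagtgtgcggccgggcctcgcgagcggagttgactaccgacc
Cldn4, chr5:134946885-134947184 (-): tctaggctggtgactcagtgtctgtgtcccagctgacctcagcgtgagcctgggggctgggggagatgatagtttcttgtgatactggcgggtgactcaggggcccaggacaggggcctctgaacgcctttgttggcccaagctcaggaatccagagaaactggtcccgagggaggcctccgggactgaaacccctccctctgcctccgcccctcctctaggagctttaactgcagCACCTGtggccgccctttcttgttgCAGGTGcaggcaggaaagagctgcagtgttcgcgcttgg
Ap1m2, chr9:21312284-21312583 (-): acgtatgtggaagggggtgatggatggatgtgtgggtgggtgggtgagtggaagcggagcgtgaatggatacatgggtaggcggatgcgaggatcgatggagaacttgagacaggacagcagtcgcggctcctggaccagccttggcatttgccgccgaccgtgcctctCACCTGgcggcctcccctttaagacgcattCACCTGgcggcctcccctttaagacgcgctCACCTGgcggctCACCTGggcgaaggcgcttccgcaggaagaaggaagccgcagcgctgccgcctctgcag

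In Elf3 the E-box began at position -140, counted with the annotated start as 0, and in Snai1 at -126. Cldn4 held 2 boxes, at -14 and 11, and Ap1m2 held 4, at -81, -51, -21 and -9. Across all 32851 promoter windows, 20.2% held at least 1 such E-box. Of the 10 regulators, 4 had a promoter entry, and those of Zeb2 and Twist1 held none of these letters. Cdh1 had no promoter entry, so its window could not be shown. The Grainyhead motif AACCGGTT, searched on both strands, was present in 0.146% of all windows and in none of the windows of the 10 regulators or of the gene groups described below.

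Zeb1 and Zeb2 transcripts are also held down by microRNAs of the miR-200 family and by miR-205. Their mature sequences (RefSeq, GRCm38.p6) are given with the seed, bases 2 to 8, in capitals, because the family splits by its seed: miR-141 and miR-200a share AACACUG, and miR-200b, miR-200c and miR-429 share AAUACUG.
miR-141-3p: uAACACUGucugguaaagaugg
miR-200a-3p: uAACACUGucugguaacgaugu
miR-200b-3p: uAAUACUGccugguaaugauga
miR-200c-3p: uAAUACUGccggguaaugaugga
miR-429-3p: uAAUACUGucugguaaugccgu
miR-205-5p: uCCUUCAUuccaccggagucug

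Vitamin C raised 2 of the 5 epithelial regulators and lowered 2 of the 5 mesenchymal ones when the arrays of the same day were compared. Grhl2 and Ovol1 rose, and Zeb1 and Snai2 fell, each at an adjusted p under 0.05 (limma, Benjamini-Hochberg over 19938 genes, two-sided). Among all genes, 0.537% rose and 0.216% fell by this test, 0.752% in either direction. The remaining 6 regulators did not pass, although 9 of the 10 had an unadjusted p under 0.05, against 12.7% of all genes. Because the members were chosen with earlier results of these data known, this comparison is not independent support. The estimated log2 difference had a median of 0.59 for the epithelial and -0.49 for the mesenchymal regulators, beside -0.01 for all genes. In bulk RNA, fewer cells of a type and less RNA per cell cannot be told apart.

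**Figure D1:**
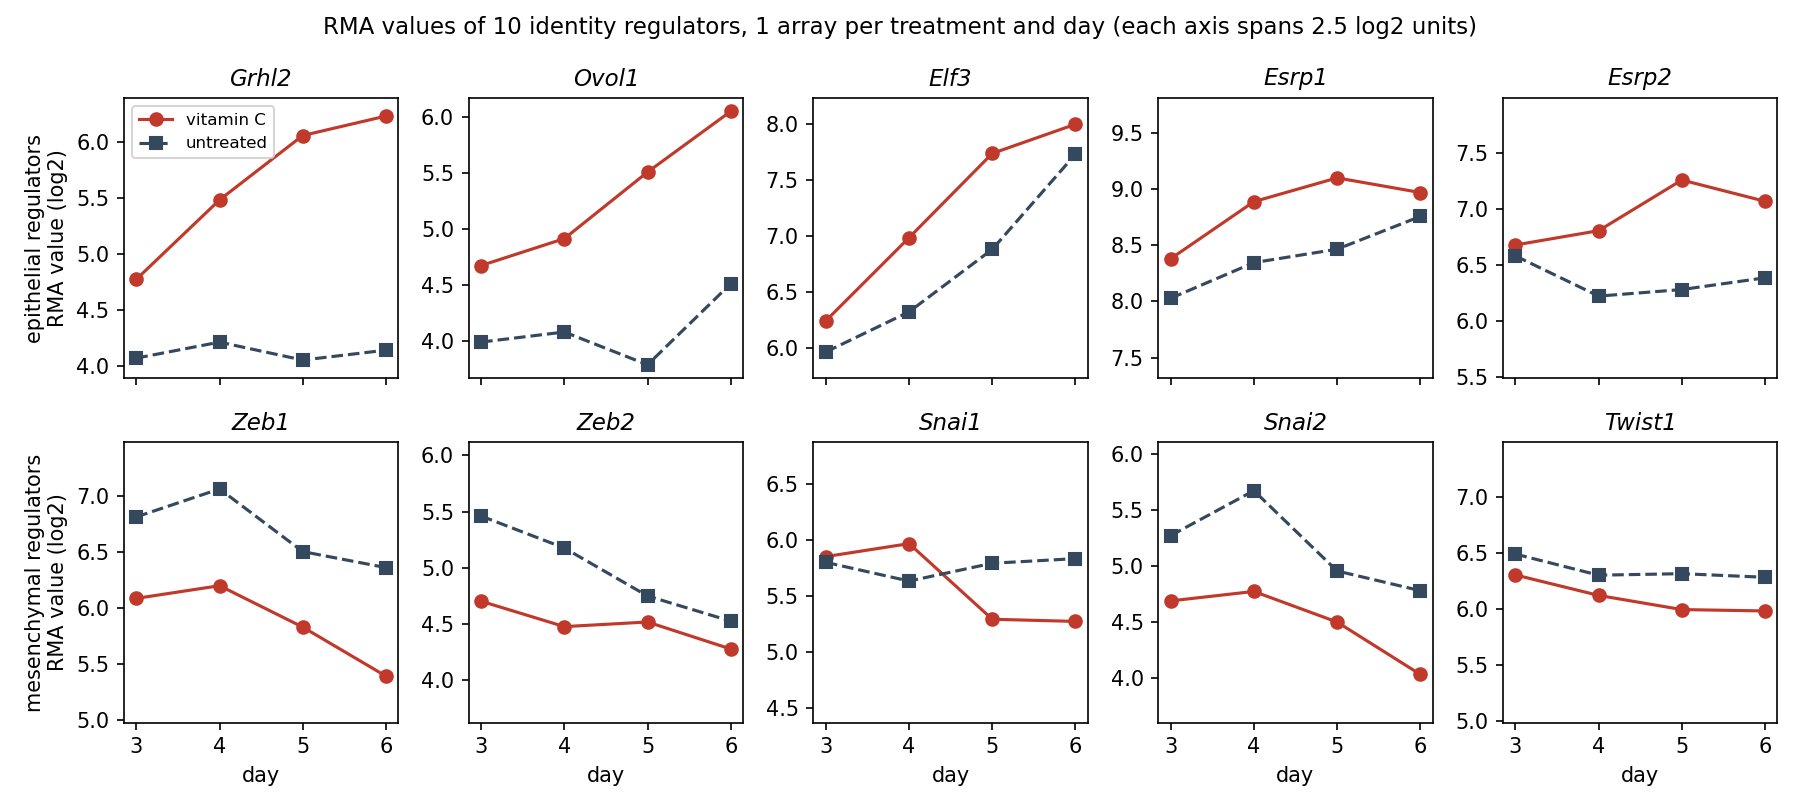
RMA values (log2, vertical axes, each spanning the same width) of the 10 regulators against day, with vitamin C as red circles and untreated as blue squares, 1 array per point. Grhl2 and Ovol1 lie above the untreated arrays on every day, while Zeb1 and Snai2 lie below the untreated arrays on every day.

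Among the epithelial transcription factors, Grhl2 (chromosome 15), a Grainyhead family activator of junction genes, moved most. Its RMA log2 values with vitamin C were 4.78, 5.48, 6.06 and 6.23 on days 3, 4, 5 and 6, against 4.07, 4.21, 4.05 and 4.14 untreated. Every vitamin C array lay above every untreated array. The untreated values differed little among themselves, and all lay below the array medians over genes, which ran from 4.66 to 4.72. The means were 5.64 ± 0.66 with vitamin C and 4.12 ± 0.07 untreated (SD over days 3 to 6, n = 4 arrays each), so the SD includes any change with day. The difference was 1.52 ± 0.21 on the log2 scale (SE, 95% interval 1.04 to 2.0, limma adjusted p = 0.0208), a fold of 2.86, and on day 6 alone it was 4.26-fold. The call was lost without day 4 (limma adjusted p = 0.160) and without day 5 (limma adjusted p = 0.124), where 3 and 9 of all genes were called, and the difference stayed between 1.33 and 1.79 over the days left out.

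Ovol1 (chromosome 19), a zinc finger repressor that acts in epithelial differentiation, had log2 values of 4.68, 4.92, 5.51 and 6.05 on days 3 to 6 with vitamin C and 3.99, 4.08, 3.79 and 4.51 untreated. Here too the groups did not overlap, and the untreated day 6 array was the highest untreated one. All untreated values lay below the array medians. The means were 5.29 ± 0.62 with vitamin C and 4.10 ± 0.30 untreated (SD over days 3 to 6, n = 4 arrays each). The log2 difference was 1.19 ± 0.18 (SE, 95% interval 0.79 to 1.59, limma adjusted p = 0.0246), or 2.29-fold, and it too failed the threshold without day 4 (limma adjusted p = 0.139) or without day 5 (limma adjusted p = 0.130).

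Elf3 (chromosome 1), an ETS family factor of epithelial cells, did not pass the test for the treatment. Its values were 6.25, 6.99, 7.74 and 8.0 with vitamin C, and 5.97, 6.33, 6.88 and 7.73 untreated. Each vitamin C array was higher than the untreated array of its day, yet the groups overlapped because both climbed with day. The log2 difference was 0.52 ± 0.13 (SE, 95% interval 0.22 to 0.81, limma adjusted p = 0.12).

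The splicing regulators Esrp1 (chromosome 4) and Esrp2 (chromosome 8) also missed the threshold. Esrp1 had log2 values of 8.38, 8.89, 9.10 and 8.97 with vitamin C and 8.03, 8.35, 8.47 and 8.76 untreated. Those of Esrp2 were 6.68, 6.80, 7.26 and 7.07 with vitamin C and 6.58, 6.22, 6.28 and 6.38 untreated. For Esrp1 the groups overlapped, whereas for Esrp2 the lowest vitamin C array, that of day 3, was just above the highest untreated array, also of day 3. The log2 differences were 0.44 ± 0.11 for Esrp1 (SE, limma adjusted p = 0.131) and 0.59 ± 0.14 for Esrp2 (SE, limma adjusted p = 0.115).

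Of the mesenchymal regulators, Zeb1, the zinc finger homeobox repressor of Cdh1, was lower with vitamin C throughout. It had log2 values of 6.09, 6.20, 5.83 and 5.39 on days 3 to 6 with vitamin C and 6.81, 7.06, 6.50 and 6.36 untreated. No vitamin C array reached the lowest untreated one, although day 4 with vitamin C came close to untreated day 6. The means were 5.88 ± 0.36 with vitamin C and 6.68 ± 0.31 untreated (SD over days 3 to 6, n = 4 arrays each). The log2 difference was -0.81 ± 0.11 (SE, 95% interval -1.05 to -0.57, limma adjusted p = 0.0176), 1.75-fold lower. Without day 4 the limma adjusted p was 0.139, and without day 5 it was 0.105.

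Zeb2 (chromosome 2), the paralogue of Zeb1, had values of 4.70, 4.47, 4.51 and 4.27 with vitamin C and 5.46, 5.17, 4.75 and 4.52 untreated. The vitamin C arrays were lower on each day, and the gap was wider on days 3 and 4 than on days 5 and 6. Day 3 with vitamin C lay above untreated day 6, so the groups overlapped. The vitamin C values of days 4, 5 and 6 and the untreated value of day 6 lay below the array medians. The log2 difference was -0.49 ± 0.13 (SE, 95% interval -0.78 to -0.20, limma adjusted p = 0.142).

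Within the Snail family of zinc finger repressors, Snai2 (chromosome 16), also called Slug, fell with vitamin C and Snai1 did not pass the test. Snai2 had log2 values of 4.69, 4.77, 4.50 and 4.03 with vitamin C and 5.27, 5.67, 4.95 and 4.78 untreated. Its highest vitamin C value, on day 4, was just below its lowest untreated value, on day 6, so that the groups did not overlap. The vitamin C values of days 5 and 6 lay below the array medians. The log2 difference was -0.67 ± 0.11 (SE, 95% interval -0.93 to -0.42, limma adjusted p = 0.0369), 1.59-fold lower. Without day 4, day 5 or day 6 it did not pass (limma adjusted p = 0.204, 0.137 and 0.099), while the difference stayed between -0.74 and -0.60 over the days left out.

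Snai1 (chromosome 2), the Snail repressor whose own promoter holds the E-box shown above, had values of 5.85, 5.97, 5.29 and 5.27 with vitamin C and 5.80, 5.63, 5.79 and 5.83 untreated. With vitamin C it was higher on days 3 and 4 and lower on days 5 and 6, while the untreated arrays stayed within a narrow range. Its log2 difference over days was -0.17 ± 0.16 (SE, 95% interval -0.53 to 0.19, limma adjusted p = 0.738). The difference between the responses of Snai1 and Snai2 was not tested.

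Twist1 (chromosome 12), a basic helix-loop-helix factor, had log2 values of 6.30, 6.12, 5.99 and 5.98 with vitamin C and 6.49, 6.30, 6.31 and 6.28 untreated. Each vitamin C array was lower than the untreated array of its day by a small amount, and day 3 with vitamin C was within the untreated range. The log2 difference was -0.25 ± 0.10 (SE, 95% interval -0.47 to -0.02, limma adjusted p = 0.348).

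**Figure D2:**
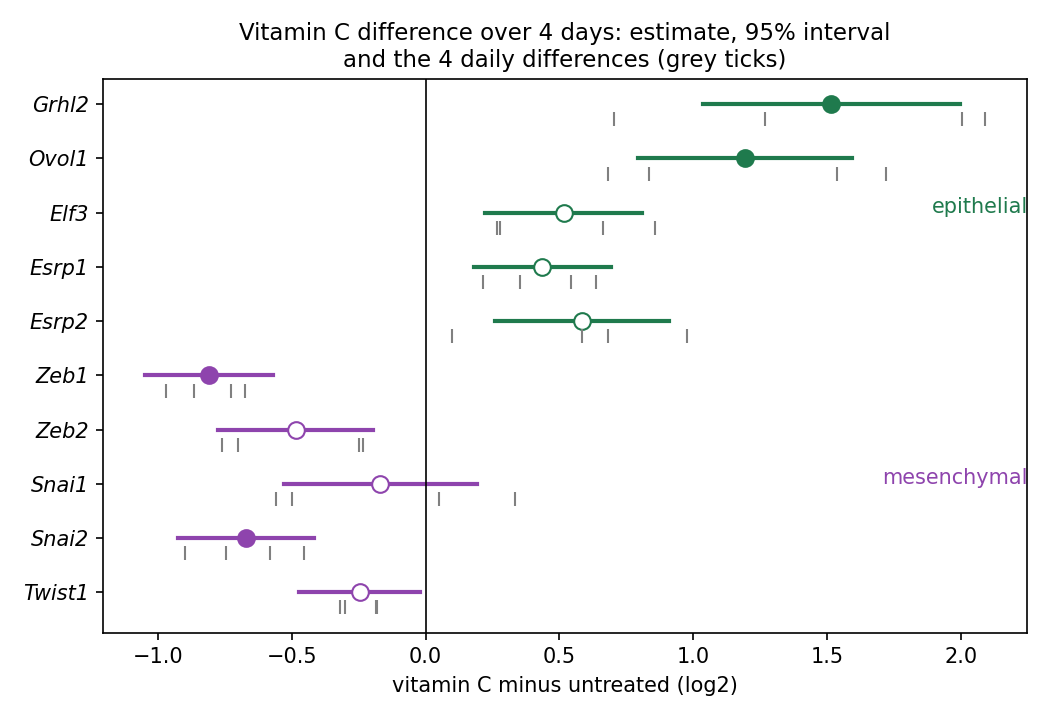
Vitamin C minus untreated (log2, horizontal axis) for each regulator: the circle is the limma estimate over 4 days, the bar its 95% interval, and the grey ticks the 4 daily differences. Filled circles, for Grhl2, Ovol1, Zeb1 and Snai2, passed an adjusted p under 0.05; Snai1 alone has daily differences on both sides of 0.

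By day, all 5 epithelial regulators were higher with vitamin C on every day, a pattern found in 9.29% of all genes, and 4 of the 5 mesenchymal regulators were lower on every day, as were 11.1% of all genes. The exception was Snai1. In 3 epithelial regulators (Grhl2, Ovol1 and Esrp2) the 4 vitamin C arrays all lay above the 4 untreated ones, against 2.1% of genes. In 2 mesenchymal regulators (Zeb1 and Snai2) they all lay below, against 2.61%. At least 2-fold higher with vitamin C were 0 epithelial regulators on day 3 (background 0.371%), 1 on day 4 (Grhl2, 0.642%), and Grhl2 and Ovol1 on days 5 and 6 (0.963% and 1.51%). No mesenchymal regulator was 2-fold lower on any day, where the background was 0.301%, 0.451%, 0.266% and 0.306% on days 3 to 6.

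The daily log2 difference of Grhl2 was 0.70, 1.27, 2.0 and 2.09 on days 3 to 6, and that of Ovol1 was 0.68, 0.83, 1.72 and 1.54. Those of Zeb1 were -0.73, -0.86, -0.67 and -0.97. So Zeb1 was lower by a similar amount from day 3, the first day measured, while the Grhl2 and Ovol1 differences were larger on days 5 and 6 than on days 3 and 4. The test for a change of the vitamin C difference per day did not call any of the 10 regulators (limma adjusted p under 0.05; 0.0652% of all genes were called), and 4 of the 10 had an unadjusted p under 0.05, against 11.3% of all genes. The closest was Grhl2, at 0.49 ± 0.10 log2 units per day (SE, limma adjusted p = 0.127).

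With vitamin C, 3 of the 10 regulators rose with day, Grhl2, Ovol1 and Elf3 (limma adjusted p under 0.05), and 0 fell, against 5.25% of all genes that rose, 3.39% that fell and 8.64% that changed. Grhl2 gained 0.49 ± 0.07 log2 units per day (SE, limma adjusted p = 0.00276), Ovol1 0.47 ± 0.09 (0.00956), and Elf3 0.60 ± 0.07 (0.00158). Without vitamin C, Elf3 rose by 0.59 ± 0.07 per day (limma adjusted p = 0.00467) and Zeb2 fell, with a slope of -0.32 ± 0.06 (0.0237), against 0.782% of all genes that rose, 0.968% that fell and 1.75% that changed. Grhl2 had an untreated slope of 0.01 ± 0.07 (limma adjusted p = 0.98), with all its untreated values below the array medians. Elf3 thus climbed in both cultures, and the difference between its slopes was 0.02 ± 0.11 log2 units per day (SE, 95% interval -0.22 to 0.25).

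Leaving out arrays changed several of these calls. Without the day 3 vitamin C array the slope of Grhl2 was 0.37 (limma adjusted p = 0.0714) and that of Ovol1 0.57 (0.0508), and without day 6 that of Ovol1 was 0.42 (0.181). The untreated slope of Zeb2 stayed between -0.36 and -0.31 but did not pass when any of the 4 untreated arrays was left out (limma adjusted p = 0.0633 to 0.455), and that of Elf3 was 0.46 without day 6 (0.374). The vitamin C slopes of Zeb1 (-0.25, limma adjusted p = 0.0969) and Snai1 (-0.24, 0.0738) did not pass, but both passed without dim genes (0.0424 and 0.0285) and with trend and robust options (0.0487 and 0.0478).

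**Figure D3:**
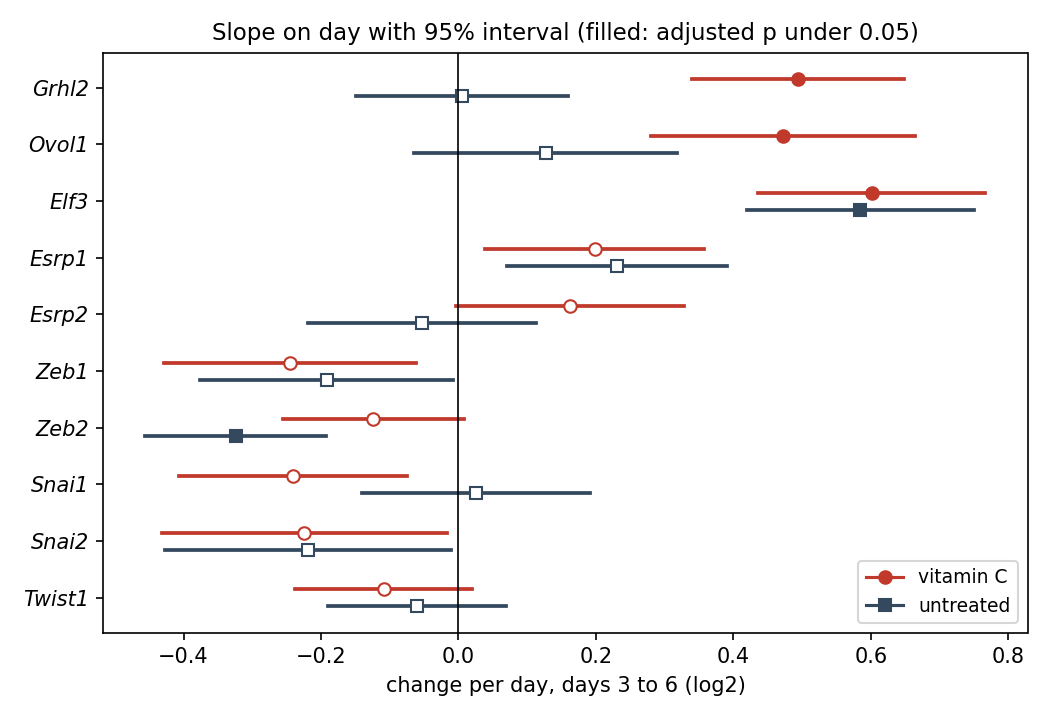
Slope on day (log2 units per day, horizontal axis) of each regulator with vitamin C (red circles) and untreated (blue squares), with 95% intervals; filled symbols have an adjusted p under 0.05. Elf3 has slopes of 0.60 with vitamin C and 0.59 untreated, and Grhl2 has slopes of 0.49 with vitamin C and 0.01 untreated.

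Taking each regulator relative to its untreated day 3 value, the mean of the 5 epithelial regulators with vitamin C stood 0.42, 0.89, 1.41 and 1.54 log2 units higher on days 3 to 6, against 0.11, 0.17 and 0.58 untreated on days 4 to 6. The mean of the 5 mesenchymal regulators stood at -0.44, -0.46, -0.74 and -0.98 with vitamin C and at 0.00, -0.30 and -0.41 untreated. On days 4, 5 and 6 the mean of each side was further from its untreated day 3 value with vitamin C than untreated. The gap between the sides was 2.51 on day 6 with vitamin C and 0.99 on day 6 untreated. These means describe members chosen with results known and carry no test.

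Around the regulators, 3 of 13 other epithelial transcription factors rose with vitamin C and 0 fell (limma adjusted p under 0.05), against 0.537% and 0.216% of all genes. The 3 were Elf5, an ETS factor (0.94, adjusted p = 0.019), Tfcp2l1, a Grainyhead-related factor of naive pluripotent cells (1.01, adjusted p = 0.0259), and Klf5, a Krüppel-like factor (0.60, adjusted p = 0.041). Each failed the threshold with at least 1 day left out (highest limma adjusted p from 0.139 to 0.210). The untreated values of Elf5, 3.41 to 3.66, lay below the array medians, as did its vitamin C values of days 3, 4 and 5 (4.07, 4.36 and 4.57). The median log2 difference of this list was 0.07. Of 12 other EMT transcription factors, 0 passed by limma and 5 had an unadjusted p under 0.05, against 0.752% and 12.7% of all genes. Foxc1 came closest (-0.67, adjusted p = 0.066). With day, 2 of the 12 rose with vitamin C and 1 fell, against 5.25% and 3.39% of all genes. Foxq1 rose by 0.43 and Sox4 by 0.41 log2 units per day, and Prrx1, a mesenchymal homeobox factor, had a slope of -0.39. Untreated, 0 rose and 2 fell, Prrx1 (-0.50) and Twist2 (-0.40), against 0.782% and 0.968% of all genes. Foxq1 and Twist2 are named to complete these counts, after their values were seen.

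The proteins that ZEB and Snail factors recruit showed 0 of 9 members past the limma threshold and 3 with an unadjusted p under 0.05. The shares of all genes were 0.752% and 12.7%. The median of the 9 was -0.09. Hdac2, a histone deacetylase, had a log2 difference of -0.32 (adjusted p = 0.223). Among 6 other splicing regulators 0 passed for treatment by limma and 2 had an unadjusted p under 0.05, against 0.752% and 12.7% of all genes. Rbm47, an RNA-binding protein of epithelial cells, had the largest log2 difference, 0.99 (adjusted p = 0.129). With day under vitamin C, 1 of the 6 rose and 2 fell, against 5.25% and 3.39% of all genes. Rbm47 rose by 0.77 per day, and Mbnl1 (-0.32) and Srsf1 (-0.25, named after its value was seen) fell. Of 5 genes with exons that ESRP proteins control, 0 passed for treatment by limma and 1 had an unadjusted p under 0.05, beside the same shares of all genes. With day under vitamin C, 1 of the 5 rose and 0 fell, against 5.25% and 3.39% of all genes. It was Fgfr2, the fibroblast growth factor receptor with an epithelial isoform, at 0.32 log2 units per day. All its values, 3.50 to 4.56, lay below the array medians. Gene-level values do not measure splicing, so the isoforms were not analysed here.

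The measured precursors of the microRNAs shown above, 5 of 6, had 0 members called by limma and 0 with an unadjusted p under 0.05. The shares of all genes were 0.752% and 12.7%. The precursors had a median log2 difference of -0.02. Their values lay between 1.91 and 4.29, and all 5 had means below the array medians of all genes, which ran from 4.66 to 4.72. Mir205 had a log2 difference of 0.22 (adjusted p = 0.513) and Mir200b one of 0.19 (adjusted p = 0.544). The probe set of Mir429 carries 2 genes and is not named. Such probe sets read the precursor and not the mature microRNA, so these values say nothing of the level of the mature forms.

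Epithelial effector genes encode junction, adhesion, keratin and sorting proteins. A difference above 0 was seen in 26 of 27 of them, and in 9604 of all 19938 genes. With vitamin C, 6 of the 27 rose and 0 fell (limma adjusted p under 0.05), against 0.537% and 0.216% of all genes. The 6 were Ap1m2, a subunit of the epithelial sorting adaptor (1.62), the claudins Cldn4 (1.22), Cldn6 (1.07) and Cldn7 (0.87), the small GTPase gene Rab25 (1.13), and Cgn, which encodes cingulin (0.94). Cdh1 did not pass, with a log2 difference of 0.61 (adjusted p = 0.0545), nor did Epcam (0.62, adjusted p = 0.074). With day, 20 of the 27 rose with vitamin C, against 5.25% of all genes, and 4 rose untreated, against 0.782%. For treatment, each of the 6 failed the threshold with at least 1 day left out (highest limma adjusted p from 0.133 to 0.210). In the promoter windows, 16 of 19 of these genes with an entry held the E-box (84.2%), against 22.2% of 15614 array genes. Of the 19, 10 held 2 or more in 1 window, against 3.41%. Of the 6 that rose with vitamin C, 5 held it (83.3%, near the share of the list), and Cgn held none. Among genes with an entry, 5 of 9 pluripotent cell markers, 4 of 10 other epithelial transcription factors and 1 of 14 feeder or fibroblast markers held it. The list was chosen with results known, so these shares are not independent support.

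Mesenchymal effector genes fell in 5 of 17 cases with vitamin C and rose in 0 (limma adjusted p under 0.05), against 0.216% and 0.537% of all genes. Their median difference was -0.58, beside -0.01 for all genes. All 17 had a difference below 0, as did 10334 of all 19938 genes. By daily medians they differed by -0.53, -0.55, -0.52 and -0.04 on days 3 to 6. Of the 17, 8 were lower on every day, as were 11.1% of all genes. The 5 that fell were Acta2, smooth muscle actin (-1.12), Axl, a receptor tyrosine kinase (-0.90), Tagln, an actin-binding protein (-0.72), Tgfb3, a transforming growth factor (-0.70), and Vim, vimentin (-0.63). Each of the 5 failed the threshold with at least 1 day left out (highest limma adjusted p from 0.139 to 0.232). In their promoter windows the E-box occurred in 1 of 12 genes with an entry.

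**Figure D4:**
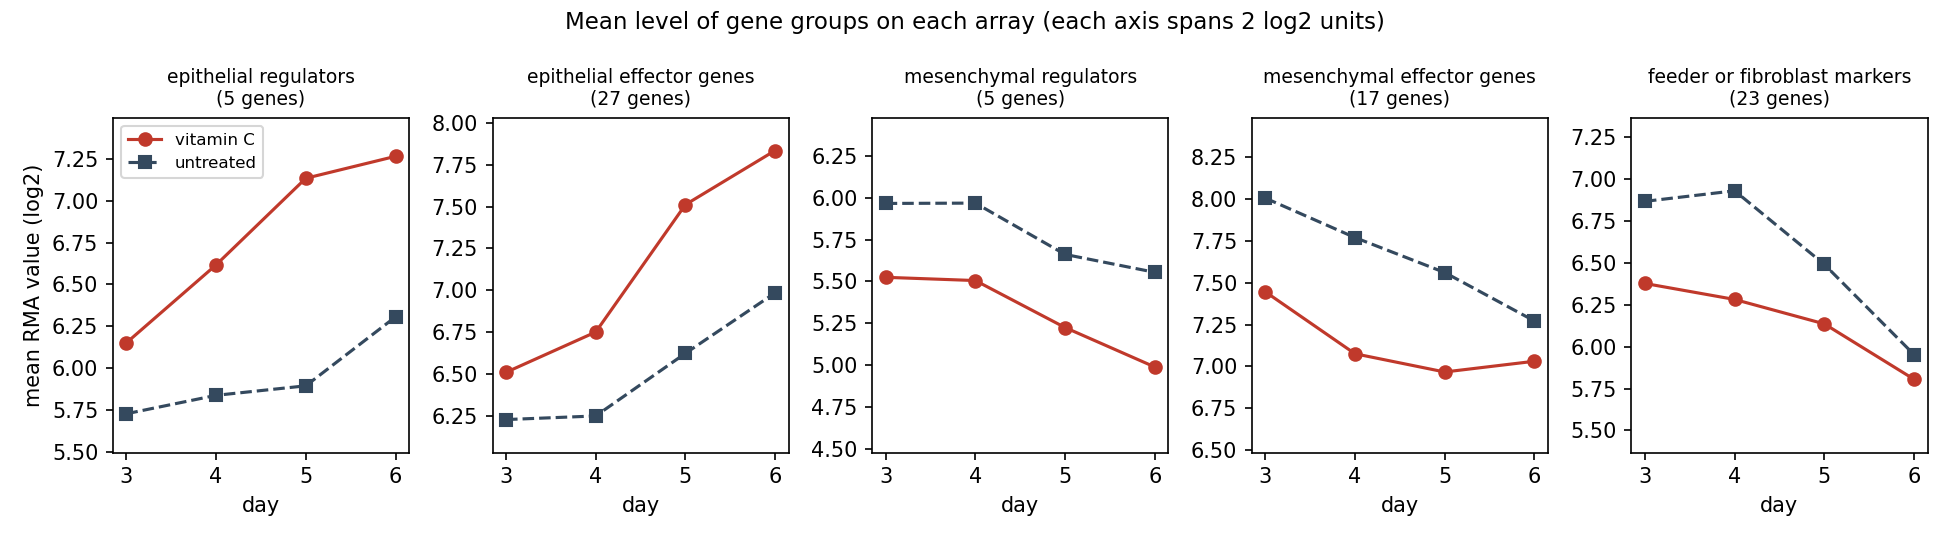
Mean RMA value (log2, vertical axes, each spanning the same width) of 5 gene groups on each array against day, with vitamin C as red circles and untreated as blue squares. The epithelial groups lie higher with vitamin C and the mesenchymal groups and feeder or fibroblast markers lower on every day, and the marker means come closest on day 6, at 5.81 with vitamin C and 5.95 untreated.

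Markers of feeder cells or fibroblasts moved with the mesenchymal regulators. Of 23 measured, 21 had a difference below 0, with a median of -0.46. With vitamin C, 2 fell (Fbln2, -0.81, limma adjusted p = 0.0161, and Col5a2, -0.73, limma adjusted p = 0.030) and 0 rose, against 0.216% and 0.537% of all genes. Both failed the threshold with a day left out (highest limma adjusted p 0.139 for Fbln2 and 0.184 for Col5a2). Of the 23, 4 had means below the array medians, and the lowest single value was 2.27. Their mean log2 level was 6.38, 6.28, 6.14 and 5.81 on days 3 to 6 with vitamin C and 6.87, 6.93, 6.49 and 5.95 untreated. Col1a1, a matrix collagen, had a difference of -0.59 (adjusted p = 0.075), and Thy1, a fibroblast surface protein, one of -0.18 (adjusted p = 0.621). By daily medians the markers differed by -0.42, -0.74, -0.46 and -0.22 on days 3 to 6. The daily differences of Zeb2 were -0.76, -0.70, -0.23 and -0.25, smaller on days 5 and 6, and those of Zeb1, given above, were largest on day 6. Whether the differences of either gene follow those of the markers was not tested.

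With the mean of these markers in the model in place of day, none of the 10 regulators passed by limma, and that model called 12 of all 19938 genes (0.0602%). Leaving out day alone, without the marker mean, also called none of the 10, and 17 genes in all. The loss of calls therefore cannot be assigned to the markers. The log2 differences were 1.30 for Grhl2, 0.82 for Ovol1, -0.47 for Zeb1 and -0.30 for Snai2. For the others they were -0.28 (Elf3), 0.18 (Esrp1), 0.52 (Esrp2), -0.16 (Zeb2), -0.10 (Snai1) and -0.16 (Twist1). The part of remaining feeder cells in the results for the regulators was not tested.

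Of 6 blood cell markers and of 6 endothelial markers, 0 passed for treatment by limma, against 0.752% of all genes. The unadjusted p was under 0.05 in 2 and 1 of them, against 12.7% of all genes. Their medians were -0.00 and -0.13, and 5 of each 6 had means below the array medians. With day under vitamin C, 2 blood cell markers rose and 0 fell, and 0 endothelial markers rose and 1 fell. Of all genes, 5.25% rose and 3.39% fell. Pluripotent cell markers rose in 3 of 10 cases (limma adjusted p under 0.05), against 0.537% of all genes. The 3 were Dppa5a (3.44), Nanog (1.79) and Utf1 (1.10). For Utf1 the limma adjusted p reached 0.199 with a day left out. The median of the 10 was 0.90, beside 0.59 for the epithelial regulators, and 8 had an unadjusted p under 0.05, against 12.7% of all genes. With vitamin C, 7 of the 10 rose with day, against 5.25% of all genes. Pou5f1 was between 11.9 and 12.1 on all arrays.

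For the 8 regulators whose values spanned at least 1 log2 unit, the genes with the nearest gene-centred profiles over 8 arrays were found by root mean square distance. Zeb1 and Snai2 were each other's nearest gene among the named genes, at 0.0898 log2 units, and Fbln2, a matrix protein in the marker list above, was next for Zeb1 at 0.114. Grhl2 was nearest to Mzb1, Cers3, a ceramide synthase gene, and Acp5, at 0.16, 0.191 and 0.204. For Ovol1 they were Cdcp1, Tfcp2l1 and Bex1, at 0.17, 0.196 and 0.217.

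Elf3 was nearest to Tdgf1, the Nodal co-receptor Cripto (0.13), Pim2 and Ppfibp2, Esrp1 to Apobec3 (0.0703), Src and Ckmt1, and Esrp2 to Hsd17b14 (0.113), B3gnt7 and Atp6v0b. Zeb2 was nearest to Plekhh2 (0.0705), Peak1 and Ddias. These distances describe 8 arrays and carry no test.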

How the data were processed

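The authors' deposited values were log2 intensities for 28853 probe sets on 8 arrays, for which the submitters' processing notes name RMA and Partek; neither a version nor the array's build is stated in them. The log2 scale was read from the range of the values (0.765 to 13.8). Per the labels' protocols, 100 ng of Trizol-extracted RNA was labelled per array after feeder removal.

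Probe sets with 1 symbol in the platform annotation (21789) were reduced to the one with the highest mean per gene, which left 19938 genes; 5443 probe sets were not listed and 1621 had several symbols. RefSeq (GRCm38.p6) gave names, chromosomes and sequences. Array medians over probe sets ran from 4.33 to 4.40, correlations between arrays from 0.977 to 0.994, and no array repeated another; the number of arrays limits the precision.

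Tests were those of limma 3.58.1 (R 4.3.3; lmFit and eBayes), two-sided, Benjamini-Hochberg adjusted over all genes, threshold 0.05. The vitamin C effect had day as a factor (3 residual and 6.03 prior degrees of freedom), so that arrays of the same day are a pair by their labels; their deviations from the group means correlated at 0.371, 0.18, 0.125 and 0.475 on days 3 to 6. Slopes came from a model with a slope on day per treatment (4 residual, 6.43 prior). The scripts were tested on simulated data. Python 3.11.15, pandas 2.3.3 and matplotlib 3.10.9 made tables and plots.

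The members, lists, and tests were chosen with earlier results of these data known. Named are all members, up to 4 genes of each list with the smallest p, every list gene that passed for treatment, 7 check genes and, for members spanning 1 log2 unit, the 3 nearest profiles. Alternatives were quantile normalization, centring, leaving out dim genes (mean under 5), averaging probe sets, eBayes with trend and robust options, other uses of day, the marker mean, and leaving out days or arrays.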

Additional observations from a re-analysis of the deposited data

Results flagged for a closer look

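Among the 20 groups of 4 arrays formed by the 10 regulators and both treatments, 1 held an array far from the others. Twist1 untreated was 6.49 on day 3, above 6.30, 6.31 and 6.28 on days 4 to 6, with a gap of 0.844 of the group's range and so above Dixon's critical value for 4 arrays. Chance flags about 1 in 20 such groups.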

How the results depend on the processing

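The vitamin C effect called 150 genes, and 241 without dim genes, 376 with trend and robust options, 291 with day as a number, 12 with the marker mean in place of day and 3 to 286 with a day left out. Without the replicate block, that is without pairing arrays by day, it called 17 genes and 0 of the 10 regulators. The change per day called 13 genes, 21 after quantile normalization, 53 without dim genes, 80 with trend and robust options and 0 to 29 with an array left out. The vitamin C slope called 1722 (270 to 1680 with an array left out), with 1046 up and 676 down, but 942 up and 930 down after centring on array medians. The untreated slope called 349, 707 without dim genes, 782 with trend and robust options and 8 to 222 with an array left out. Without dim genes, 6 of the 10 regulators were tested and Zeb1 was called. Grhl2, Ovol1, Zeb2 and Snai2 counted as dim and were left out there. Trend and robust options called 5 epithelial and 2 mesenchymal regulators. With the marker mean in place of day the direction turned for Elf3 (-0.28), Prrx1 (0.27), Cd68 (-0.53), Col1a1 (0.024) and Thy1 (0.26). Qk turned when probe sets were averaged (0.012). With a day left out, the effect ran from -0.14 to 0.0055 for Qk, -0.025 to 0.40 for Fgfr2, -0.14 to 0.022 for Mir200a and -0.29 to 0.15 for Cldn5. With an array left out, the change per day ran from -0.10 to 0.16 for Elf3 (-0.00332 after quantile normalization), -0.19 to 0.13 for Esrp1, -0.21 to 0.11 for Zeb1 and -0.15 to 0.22 for Snai2. The untreated slope ran from -0.036 to 0.019 for Grhl2 (-0.032 after quantile normalization, -0.0086 after centring). It ran from -0.10 to 0.22 for Ovol1, -0.15 to 0.082 for Esrp2 and -0.0039 to 0.10 for Snai1. The cause was not tested for these.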
